A study of Mus musculus with 15 samples.

Results

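The genes described here encode 8 proteins of the myelin membrane and its cytoplasm other than the major structural ones: Cnp, Sirt2, Mag, Mog, Mobp, Mal, Cldn11 and Tspan2. They were chosen by gene symbol, with earlier results of these data known. Every probe set that carries 1 of these symbols was kept, those of low signal included. That gave 15 probe sets of the 22626 on the array that are not controls, and 8 genes of 12393 with a probe set of a single symbol. Each gene was followed through its probe set of the highest mean over all arrays, and 7 of the 8 passed the expression filter, a log2 level of 0.51, with 7909 genes in all. The filter used the mean over all 15 arrays. Mobp passed it only through its 24 h arrays, with means of 0.34, 0.48 and 2.19 in undifferentiated, 12 h and 24 h arrays. The undifferentiated mean of Mal, 0.23, also lay below the level, and its 12 h mean was 0.73. Averaged over undifferentiated and 12 h arrays alone Mal would not have passed, so its 24 h mean of 1.10 carried it over the level. Mog did not pass, so its values come from the fit without a filter and are marked as such.

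The samples were neural stem cells from the subventricular zone, the germinal layer along the lateral ventricles, of adult female C57Bl6/J mice aged 6 months. The cells were passaged as neurospheres and belonged to 3 groups of 5 arrays. Undifferentiated cells (0 h) were kept with the growth factors bFGF and EGF, and the other groups were taken 12 h and 24 h after a move to poly-D-lysine in 5% serum with no growth factors. Serum, substrate and growth factor withdrawal changed together, so their parts cannot be told apart, and the labels do not say whether the arrays of a group came from separate cultures or animals. The p-values therefore cover the spread between these arrays, which may be technical, and the number of arrays limits the precision.

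Myelin is the membrane that oligodendrocytes wrap around axons in the central nervous system, spiral layer upon layer, with the cytoplasm squeezed out between most of them. Cells of the lineage pass from a dividing precursor to a cell that leaves the cycle, switches on lipid synthesis and then makes the proteins of compact and non-compact myelin, under transcription factors such as Sox10 and Myrf. The subventricular zone gives rise to oligodendrocytes as well as to neurons and astrocytes, and in culture the loss of growth factors is a common trigger of all these fates.

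At 24 h, 7 of 7 tested members were called higher than in undifferentiated cells (limma, Benjamini-Hochberg adjusted p under 0.05), where 12.7% of all 7909 genes tested were called higher. Their differences ran from 0.86 on the log2 scale for Tspan2 to 2.63 for Sirt2, with a median of 2.10, while the median over all genes tested was -0.06. Mog also rose, by 1.53 ± 0.28 (SE) in the fit without a filter, in which 8.75% of genes were called higher. All 8 members were called in that fit. At 12 h, 0 of 7 were called, against 3.3% of all genes called higher. Of the 7 members 1 (Mal) had an unadjusted limma p under 0.05, against 12.4% of genes higher at that unadjusted p. The median difference of the members was 0.76, against 0.0045 over all genes. Without 12 h replicate 5 the median of the members was 0.35, against 0.023 over all genes. Between 12 h and 24 h, 0 of 7 were called in limma, and 7 of 7 were higher at an unadjusted p under 0.05; the backgrounds were 0.0632% of genes called higher and 4.67% higher at that unadjusted p. The 3 comparisons share arrays, so their counts are not independent of each other. In whole cultures, more cells of a type and more RNA per cell cannot be told apart.

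Facts of the array set bear on every value below. For 13 of 15 samples the title and the array file carry different array codes, and 8 of these would change group. Groups follow the titles and sample sources; grouped by the file codes instead, limma called 0 genes in each comparison, and the members' differences at 24 h were 0.03 to 0.54. Title codes end in 3 suffixes, here A, B and C, and form 6 runs of consecutive numbers, 4 of which hold an array of each group. The labels do not say what a suffix or a run is. The nearest arrays were 12 h replicates 3 and 4, whose differences over genes had an SD of 0.15 on the log2 scale, against 0.28 for the next pair; both were kept, and at 24 h the 7 members stayed called with the 2 averaged. Among the 5 nearest pairs, 2 joined 12 h replicate 5 with 24 h replicates 4 and 5 (SD 0.32 and 0.34).

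A measure related to RNA quality moved with the groups. The beta-actin 3'/5' signal ratio, which rises as RNA or labelling gets poorer, was 1.63 to 2.22 in undifferentiated arrays, 2.21 to 2.59 at 12 h and 2.23 to 3.21 at 24 h. It was highest among the 12 h arrays in replicate 5 and lowest among the 24 h arrays in replicate 1. These are also the arrays with the highest and the lowest mean over the members in their groups. Among undifferentiated arrays, replicate 3 had both the highest ratio (2.22) and the highest mean over the members. Undifferentiated replicate 5, with a ratio of 2.15, had the lowest mean. With this ratio as a covariate, 0 of 7 members were called at 24 h, and over all genes 13 calls were left of 2536. The members' differences at 24 h then lay between 0.19 (Tspan2) and 1.73 (Sirt2). That of Mal went up, from 0.87 to 1.07, and those of the other members went down. The ratio did not overlap between undifferentiated arrays (up to 2.22) and 24 h arrays (from 2.23). This fit can therefore separate it from the group only in part, through the spread within groups. The Gapdh 3'/5' ratio overlapped between groups, at 0.976 to 1.52, 1.19 to 1.40 and 1.23 to 1.45. The part of RNA quality in the results was not tested beyond this.

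The stretches before the transcription start of 5 members are shown. Of these, Mal followed an order of its own across arrays, and Cnp, Mag, Mog and Mobp were correlated, least so Cnp with Mobp (r = 0.744 for levels). Cldn11 with Mag (0.972) and Sirt2 with Cnp (0.975) were higher, and the Cldn11 and Sirt2 windows, not printed, held no match to the motifs below. Myrf and Sox10, whose binding motifs are known, also rose at 24 h. Their part in the members' levels was not tested. Sequences are from RefSeq, build GRCm38.p6, 250 bases up to the start, 5′ to 3′ on the strand of the gene. All 8 genes matched, with 11 windows, since Mag and Tspan2 have several annotated starts; of these the Mag window farthest upstream is printed. Capitals mark matches on either strand to CTGGNAC, a loose form of the Myrf motif in which N is any base, or to ACAAAG, a core of the SOX motif. The windows are chr11:100574689-100574938 (plus strand) for Cnp, chr7:30914923-30915172 (minus) for Mag, chr17:37023399-37023648 (minus) for Mog, chr9:120149492-120149741 (plus) for Mobp and chr2:127656696-127656945 (minus) for Mal.
Cnp: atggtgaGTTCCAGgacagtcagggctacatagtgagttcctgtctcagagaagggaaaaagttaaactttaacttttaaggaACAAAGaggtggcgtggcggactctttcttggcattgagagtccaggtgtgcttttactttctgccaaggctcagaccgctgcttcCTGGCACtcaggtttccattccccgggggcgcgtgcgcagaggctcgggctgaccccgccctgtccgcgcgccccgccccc
Mag: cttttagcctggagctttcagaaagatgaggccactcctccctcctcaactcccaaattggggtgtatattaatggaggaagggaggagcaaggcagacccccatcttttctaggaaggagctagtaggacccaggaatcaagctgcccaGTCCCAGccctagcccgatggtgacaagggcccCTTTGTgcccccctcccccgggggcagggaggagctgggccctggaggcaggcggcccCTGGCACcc
Mog: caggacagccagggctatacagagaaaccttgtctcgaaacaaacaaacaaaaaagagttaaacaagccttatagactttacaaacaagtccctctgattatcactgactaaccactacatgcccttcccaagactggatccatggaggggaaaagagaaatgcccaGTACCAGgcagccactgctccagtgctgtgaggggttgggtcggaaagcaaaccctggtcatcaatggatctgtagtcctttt
Mobp: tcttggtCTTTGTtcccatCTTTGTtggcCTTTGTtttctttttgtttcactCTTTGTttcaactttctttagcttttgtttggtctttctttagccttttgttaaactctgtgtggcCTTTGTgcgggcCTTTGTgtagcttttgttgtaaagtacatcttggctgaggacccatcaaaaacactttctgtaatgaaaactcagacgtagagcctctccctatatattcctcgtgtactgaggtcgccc
Mal: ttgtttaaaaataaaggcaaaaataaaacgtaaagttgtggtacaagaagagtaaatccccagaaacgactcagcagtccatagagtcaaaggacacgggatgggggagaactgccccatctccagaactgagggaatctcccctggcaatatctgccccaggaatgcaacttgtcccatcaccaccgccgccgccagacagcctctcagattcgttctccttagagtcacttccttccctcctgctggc

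The loose Myrf form occurred in 3 of 8 members: 2 times in the Cnp window, 2 times in Mag (the same 2 sites in a pair of overlapping windows) and 1 time in Mog. A stricter form was not searched, so a match need not be a Myrf core. In the Mag window 1 match lay 9 to 3 bases before the start and the other 100 to 94 bases before it. Of 32851 promoter windows of the same length, 16.1% held at least 1 match and 1.58% held 2 or more. The SOX core occurred in 4 of 8 members, Cnp, Mag, Mobp and 1 of the Tspan2 windows, and 16.5% of all windows held it. A gene was counted if any of its windows matched, and the 8 members have 11 windows. For each motif the count of genes and the share of single windows are therefore unlike measures. In Mobp the 6 matches all read CTTTGT on the printed strand, between 243 and 115 bases before the start. Of the 32851 windows 1 held 6 or more, the Mobp window itself. The E-box CAGCTG was searched on both strands and was found in 0 of 8 members, and 13.0% of windows held it. Matches of the 3 motifs did not overlap each other in these windows, though windows of alternative starts of a gene do. The Mal, Cldn11 and Sirt2 windows held no match to any of the 3. A match is a run of letters and not a measured binding site.

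**Figure D1:**
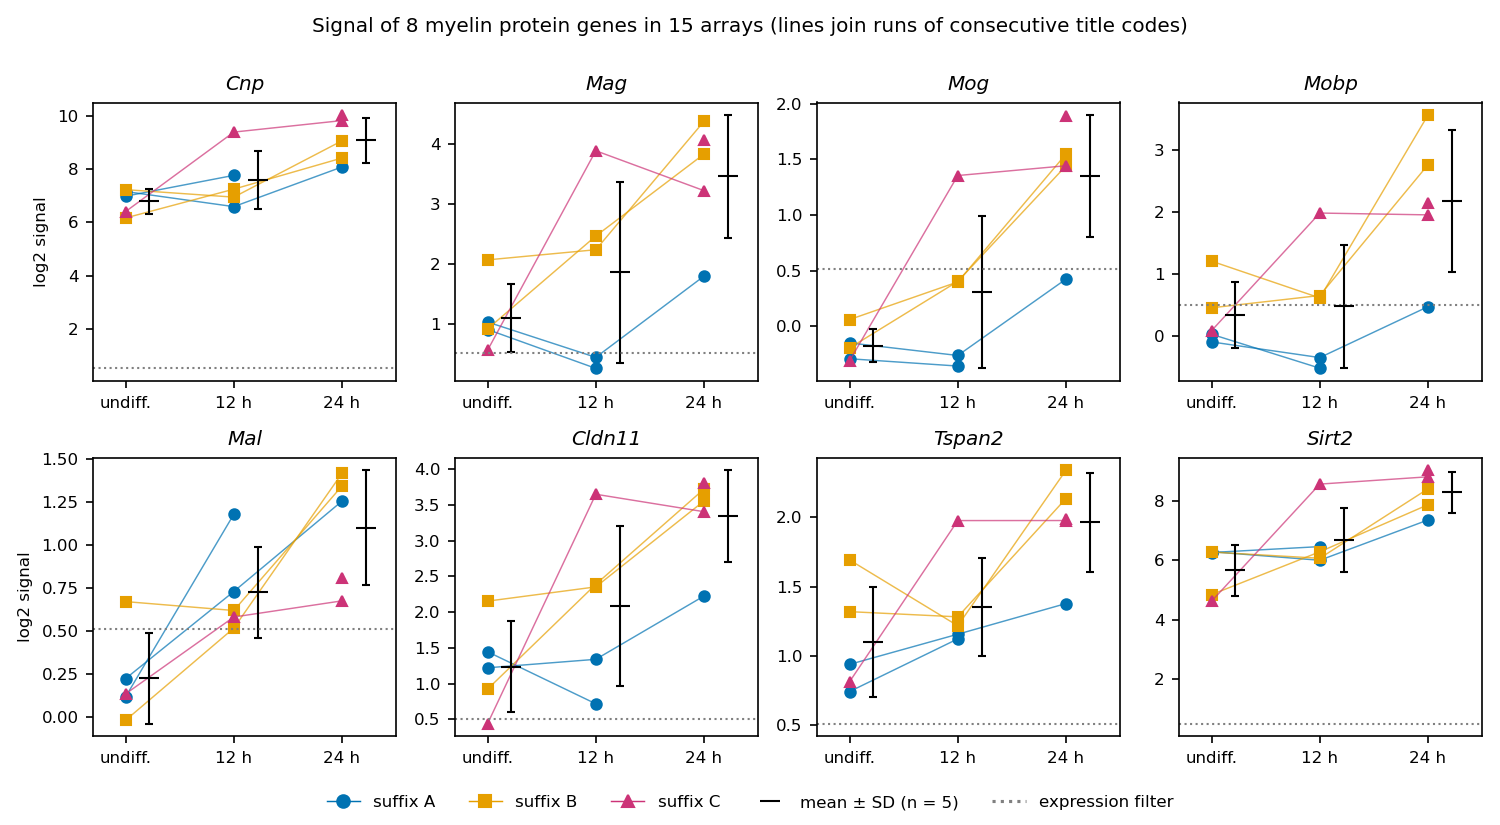
Log2 signal (vertical axis) of the 8 genes in undifferentiated cells and at 12 h and 24 h, 1 point per array, with colour and shape for the title code suffix, lines joining arrays of a run of consecutive title codes, and bars for mean ± SD (n = 5); the dotted line is the expression filter at 0.51. The 12 h array of suffix C (replicate 5) lies within the range of the 24 h arrays for every gene but Mal, whose highest 12 h array is replicate 1, of suffix A.

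Cnp encodes a cyclic nucleotide phosphodiesterase that keeps cytoplasmic channels open within myelin and appears early in the lineage. Its log2 level was 6.98, 7.15, 7.22, 6.16 and 6.40 in undifferentiated replicates 1 to 5, a mean of 6.78 ± 0.47 (SD, n = 5). At 12 h the 5 arrays read 7.76, 6.59, 6.94, 7.24 and 9.39 (7.58 ± 1.10), and at 24 h they read 8.08, 9.06, 8.41, 10.02 and 9.82 (9.08 ± 0.85). All 24 h arrays lay above all undifferentiated ones, and the 12 h group overlapped both, with replicates 2 and 3 among the undifferentiated arrays and replicate 5 among those at 24 h. Cnp rose 4.90-fold by 24 h (log2 2.29 ± 0.47, SE; limma adjusted p = 0.00236), higher in 4 of 4 complete runs. The 12 h difference of 0.80 ± 0.47 did not pass (limma adjusted p = 0.295) and was 0.11, 0.40 and 2.98 within suffixes A, B and C.

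Sirt2 encodes an NAD-dependent deacetylase that in the brain is abundant in the cytoplasmic parts of myelin. In undifferentiated arrays its log2 level was 6.26, 6.29, 6.28, 4.85 and 4.63 (5.66 ± 0.85, SD, n = 5), with replicates 4 and 5 below the other 3. At 12 h it was 6.46, 6.00, 6.07, 6.29 and 8.56 (6.67 ± 1.07), and at 24 h 7.35, 8.40, 7.87, 9.03 and 8.81 (8.29 ± 0.68). The 24 h arrays again stood clear of the undifferentiated group, and 4 of the 12 h arrays lay close together while replicate 5 lay far above them. The rise by 24 h was 6.20-fold, the largest of the members (2.63 ± 0.49, SE; limma adjusted p = 0.0012). Within suffixes A, B and C it was 1.08, 2.57 and 4.29, and the 12 h difference of 1.02 ± 0.49 (limma adjusted p = 0.197) was -0.04, 0.61 and 3.93.

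Mag encodes a sialic acid-binding adhesion protein of the immunoglobulin family on the innermost myelin membrane, facing the axon. Its log2 level in undifferentiated arrays was 0.91, 1.03, 2.07, 0.92 and 0.57 (1.10 ± 0.57, SD, n = 5). At 12 h it was 0.26, 0.44, 2.24, 2.47 and 3.89 (1.86 ± 1.51), and at 24 h 1.80, 4.38, 3.83, 4.07 and 3.22 (3.46 ± 1.02). The 12 h arrays overlapped both other groups: replicates 1 and 2 lay below every undifferentiated array, and replicate 5 lay above 24 h replicates 1, 3 and 5 and below replicates 2 and 4. Mag rose 5.13-fold by 24 h (2.36 ± 0.61, SE; limma adjusted p = 0.00821), although 24 h replicate 1 lay below undifferentiated replicate 3. The 12 h difference was 0.76 ± 0.61 (limma adjusted p = 0.452), with -0.62, 0.86 and 3.32 within suffixes A, B and C.

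Mog encodes an immunoglobulin-like protein of the outermost myelin surface that is made late in oligodendrocyte maturation and is found only in the central nervous system. Its signal was low. Undifferentiated arrays read -0.29, -0.15, 0.06, -0.20 and -0.31 on the log2 scale (-0.18 ± 0.15, SD, n = 5), 12 h arrays -0.36, -0.26, 0.40, 0.40 and 1.35 (0.31 ± 0.69), and 24 h arrays 0.42, 1.55, 1.44, 1.89 and 1.44 (1.35 ± 0.55). All undifferentiated arrays and 4 of 5 at 12 h lay below the filter level of 0.51, while 4 of 5 at 24 h lay above it, and the 24 h arrays did not overlap the undifferentiated ones. In the fit without a filter Mog rose 2.88-fold by 24 h (1.53 ± 0.28, SE; limma adjusted p = 0.00163). With no filter 1.92% of genes were called higher at 12 h and 0.0726% between 12 h and 24 h. The 12 h difference of Mog was 0.48 ± 0.28 (limma adjusted p = 0.349), with -0.09, 0.47 and 1.66 within suffixes A, B and C.

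Mobp encodes a small basic protein of compact myelin that lies on the cytoplasmic face of the membrane. The log2 level was 0.03, -0.09, 1.21, 0.46 and 0.09 in undifferentiated arrays (0.34 ± 0.53, SD, n = 5). It was -0.51, -0.34, 0.62, 0.66 and 1.99 at 12 h (0.48 ± 0.999) and 0.48, 3.57, 2.77, 2.16 and 1.96 at 24 h (2.19 ± 1.14). The group at 24 h was wide: replicate 1 stayed among the undifferentiated arrays, and replicates 2 and 3, both of suffix B, were highest. Mobp rose 3.59-fold by 24 h (1.84 ± 0.51, SE; limma adjusted p = 0.012), with 0.51, 2.33 and 1.97 within suffixes A, B and C. Its 12 h difference was the smallest of the members, 0.14 ± 0.51 (limma adjusted p = 0.893), with -0.40, -0.20 and 1.90 within the suffixes and -0.24 without 12 h replicate 5.

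Cldn11 encodes the claudin that forms the tight junctions between the layers of central myelin. In undifferentiated arrays its log2 level was 1.45, 1.22, 2.15, 0.93 and 0.44 (1.24 ± 0.63, SD, n = 5). The 12 h arrays read 0.72, 1.34, 2.35, 2.39 and 3.65 (2.09 ± 1.12), and the 24 h arrays 2.23, 3.55, 3.72, 3.80 and 3.40 (3.34 ± 0.64). Of the 24 h arrays 4 lay close together between 3.40 and 3.80, and replicate 1 lay just above the highest undifferentiated array. The 24 h rise was 4.29-fold (2.10 ± 0.46, SE; limma adjusted p = 0.00344), and the 12 h difference 0.85 ± 0.46 (limma adjusted p = 0.255). Within suffixes A, B and C the 12 h difference was -0.30, 0.83 and 3.20.

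Tspan2 encodes a tetraspanin, a protein with several membrane passes, that is found in early oligodendrocytes and myelin. The undifferentiated arrays gave a log2 level of 0.74, 0.94, 1.69, 1.32 and 0.81 (1.10 ± 0.40, SD, n = 5). At 12 h the values were 1.12, 1.16, 1.22, 1.28 and 1.98 (1.35 ± 0.35), and at 24 h 1.38, 2.34, 2.14, 1.99 and 1.98 (1.96 ± 0.36). Undifferentiated replicate 3 stood above 24 h replicate 1, so the groups overlapped. Tspan2 rose 1.82-fold by 24 h (0.86 ± 0.22, SE; limma adjusted p = 0.00759). The 12 h difference was 0.25 ± 0.22 (limma adjusted p = 0.498), with 0.30, -0.26 and 1.16 within suffixes A, B and C.

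Mal encodes a proteolipid of cholesterol-rich membrane domains that takes part in the sorting of myelin proteins. Its log2 level was 0.12, 0.23, 0.67, -0.02 and 0.14 in undifferentiated arrays (0.23 ± 0.26, SD, n = 5), 1.18, 0.73, 0.62, 0.52 and 0.58 at 12 h (0.73 ± 0.27), and 1.26, 1.35, 1.42, 0.81 and 0.68 at 24 h (1.10 ± 0.33). Here the order of arrays differed from the other members: 12 h replicate 1 was the highest of its group, and 24 h replicates 4 and 5, both of suffix C, were the lowest of theirs. All 24 h arrays exceeded all undifferentiated arrays, the smallest gap being between 0.68 and 0.67. Mal rose 1.83-fold by 24 h (0.87 ± 0.17, SE; limma adjusted p = 0.00189). At 12 h its difference of 0.50 ± 0.17 (limma adjusted p = 0.0828) passed with the suffix as a block (adjusted p = 0.0346) and with runs as a random block (0.0331), as well as after quantile normalisation (0.0319), after median centring (0.041) and without undifferentiated replicate 3 (0.0456). With the suffix block 7.99% of all genes were called higher at 12 h. The random block called 633 of 7909 higher, quantile normalisation 448 of 7912 and median centring 275 of 7909. Without undifferentiated replicate 3, 261 of 7909 were called higher. With runs as a fixed block, where 6.04% were, Mal had an adjusted p of 0.0563 in limma. The mean of its probe sets, without a filter, gave 0.30 (limma adjusted p = 0.266), and its other probe set 0.10 (adjusted p = 0.765).

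**Figure D2:**
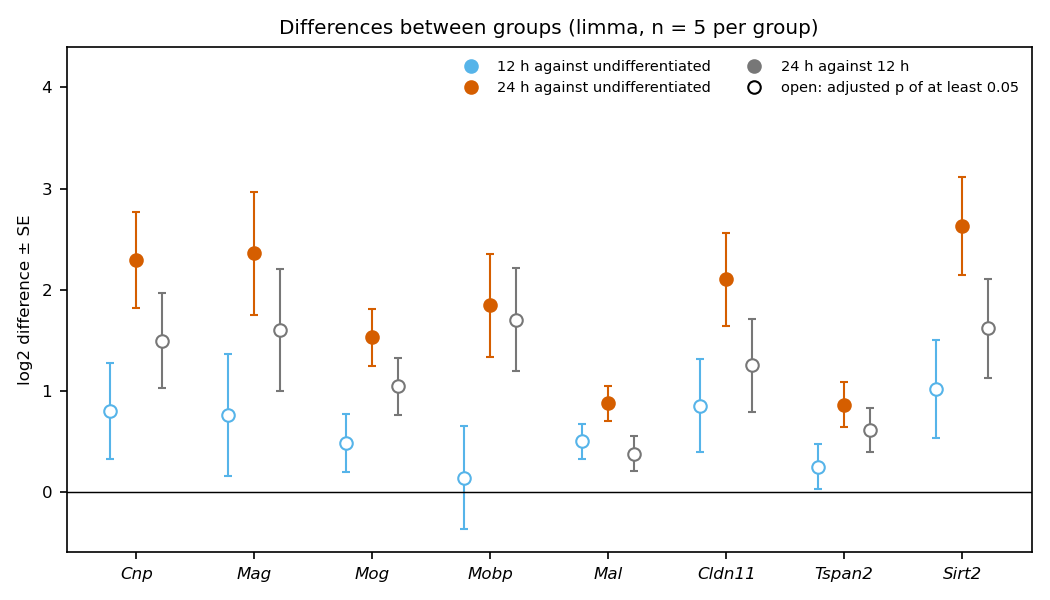
Log2 differences (vertical axis) of the 8 genes in the 3 comparisons, with SE bars from limma (n = 5 per group); filled points have an adjusted p under 0.05, and Mog is from the fit without a filter. The 24 h against undifferentiated differences, 0.86 to 2.63, are all filled, and those at 12 h, 0.14 to 1.02, are all open.

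At 24 h the arrays did not overlap the undifferentiated ones for 4 of 7 tested members, Cnp, Sirt2, Cldn11 and Mal, where 9.04% of all genes tested lay that way, and for Mog as well. At 12 h this held for 0 of 7, against 3.41% of genes. With the suffix as a block 7 of 7 were called at 24 h, where 18.1% of genes were higher, and with runs as a block 7 of 7, where 15.3% were. Leaving out any single array of the 15 kept every member called at 24 h, Mog included, with a highest adjusted p of 0.0314 (Mobp without 24 h replicate 2). Without the 4 arrays of suffix C, 4 of 7 tested members were called, where 516 of 7909 genes were called higher. The differences of the other 3 were 2.10 ± 0.67 for Mag (limma adjusted p = 0.0565), 1.87 ± 0.61 for Mobp (0.0623) and 0.78 ± 0.25 for Tspan2 (0.058). Within each suffix the 24 h difference was positive for all 8 genes. It was smallest in suffix A for all but Mal, from 0.51 (Mobp) to 1.08 (Sirt2), where there is 1 array at 24 h. Quantile normalisation and median centring moved the median of all genes from -0.06 to 0.04 and 0.08, and the share of higher genes among calls from 39.6% to 54.7% and 56.1%. The members' differences are large against that shift, and every member kept its direction and its call at 24 h under both.

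**Figure D3:**
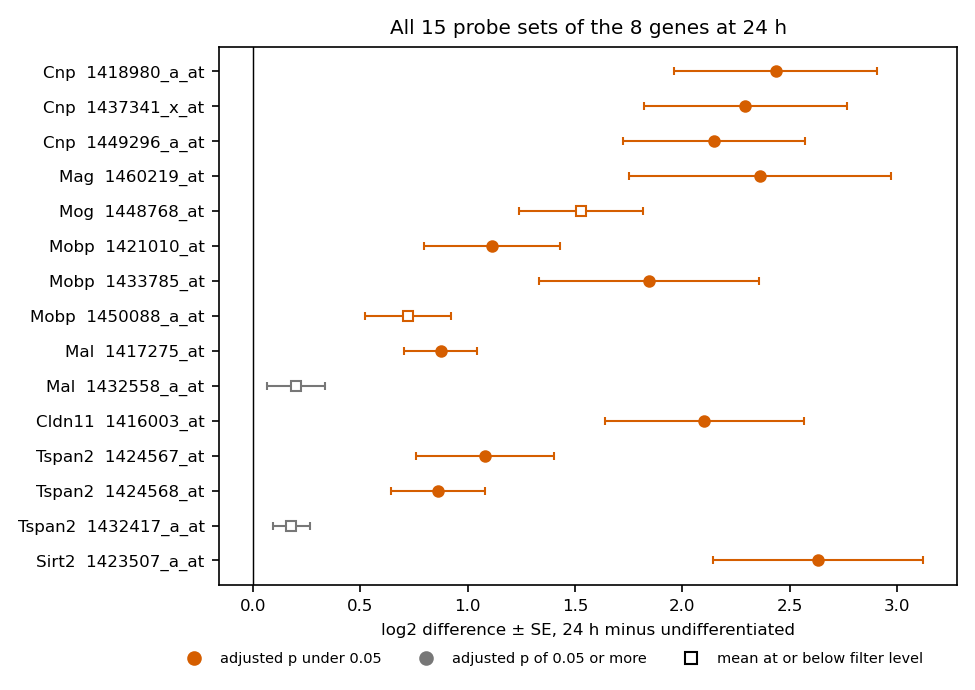
Log2 difference at 24 h minus undifferentiated (horizontal axis, SE bars) for each of the 15 probe sets; open squares are probe sets whose mean lies at or below the filter level, and grey marks an adjusted p of 0.05 or more. Of the 15, 13 were called, and the 2 in grey are low-signal probe sets of Mal (0.20) and Tspan2 (0.18).

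All 15 probe sets had a positive difference at 24 h, and 13 of 15 were called higher in a fit over 20380 probe sets, of which 6.62% were called higher. Of the 15, 11 had a mean above the filter level and 4 at or below it. The 3 Cnp probe sets gave 2.43 ± 0.47, 2.29 ± 0.47 and 2.15 ± 0.42. The Mobp probe sets gave 1.84 ± 0.51, 1.11 ± 0.32 and 0.72 ± 0.20, and all 3 passed in limma (adjusted p = 0.0191, 0.0215 and 0.0194). The 2 Tspan2 probe sets above the filter level gave 1.08 ± 0.32 and 0.86 ± 0.22, while the one of low signal gave 0.18 ± 0.09 and did not pass (adjusted p = 0.157). The other Mal probe set read -0.34 to 0.39 over all arrays of the undifferentiated and 24 h groups and did not pass (0.20 ± 0.14, adjusted p = 0.331). At 12 h, 0 of 15 probe sets were called, where 1.15% of all were higher, and between 12 h and 24 h 0 of 15, where 0.0393% were higher. At 12 h 14 of 15 differences were positive; the exception was a Mobp probe set at -0.0047.

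The 12 h arrays were not alike. In 12 h replicate 5 the 7 members other than Mal lay at the 24 h mean or near it, and in the other arrays they lay near the undifferentiated mean or part of the way. Placed on a scale from the undifferentiated mean (0%) to the 24 h mean (100%), the median of the 8 members was -4.69%, -0.373%, 26.6%, 28.5% and 106% in 12 h replicates 1 to 5. The same median over the 996 other genes called higher at 24 h was 77.0%, 80.9%, 26.6%, 27.7% and 92.8%, and over the 1533 genes called lower it was 93.3%, 71.2%, 16.6%, 23.6% and 99.5%. Among undifferentiated arrays the member median was -19.6% to -0.499% in replicates 1, 2, 4 and 5 and 42.3% in replicate 3. In 12 h replicates 3 and 4 the members thus lay within that spread, at positions close to those of the other genes. In 12 h replicates 1 and 2, of suffix A, the members were at the undifferentiated level and the other genes most of the way to the 24 h level. Mal was the exception, at 109% and 57.6% in those arrays, and Cnp (42.6%) and Sirt2 (30.4%) were part of the way in replicate 1. The single 24 h array of suffix A, replicate 1, had a member median of 43.2%, against 119% for the other higher genes and 94.7% for the lower ones. This scale was chosen after the values had been seen and rests on the same arrays, so it is a description with no test.

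**Figure D4:**
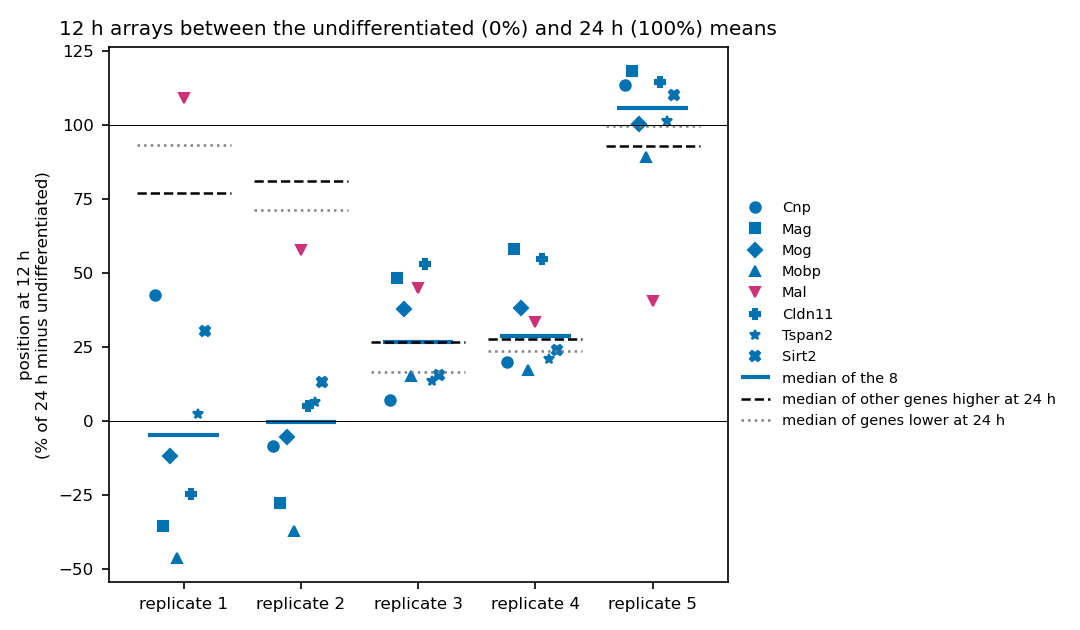
Position of each 12 h array (horizontal axis) between the undifferentiated mean (0%) and the 24 h mean (100%, vertical axis) for the 8 genes (symbols, Mal in pink), with the median of the 8 as a thick blue line, of 996 other genes higher at 24 h as a dashed line, and of 1533 genes lower at 24 h as a dotted line. The blue line lies near 0% in replicates 1 and 2, where the other lines lie at 71.2% to 93.3%, and above 100% in replicate 5.

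Within runs of consecutive title codes the 24 h difference from undifferentiated cells was positive in 4 of 4 complete runs for each of the 8 genes. The 12 h difference was positive in 4 of 5 runs for Mal and Cldn11, in 3 of 5 for Cnp, Mag, Mog, Tspan2 and Sirt2, and in 2 of 5 for Mobp. It was highest in the run of suffix C for all but Mal, at 3.93 for Sirt2, 3.32 for Mag, 3.20 for Cldn11, 2.98 for Cnp, 1.90 for Mobp, 1.66 for Mog and 1.16 for Tspan2. In that run little difference was left between 12 h and 24 h. The 24 h minus 12 h difference there was -0.66 for Mag, -0.24 for Cldn11, -0.03 for Mobp, 0.25 for Sirt2 and 0.43 for Cnp.

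Between 12 h and 24 h the members' differences ran from 0.37 ± 0.17 for Mal (limma adjusted p = 0.322) to 1.70 ± 0.51 for Mobp (adjusted p = 0.129). Sirt2 stood at 1.62 ± 0.49 (limma adjusted p = 0.13), Mag at 1.6 ± 0.61 (0.219), Cnp at 1.49 ± 0.47 (0.145), Cldn11 at 1.25 ± 0.46 (0.204), Tspan2 at 0.61 ± 0.22 (0.19) and Mog, with no filter, at 1.04 ± 0.28 (0.125). No member had its 24 h arrays clear of its 12 h arrays, where 0.708% of genes did. The calls turned on 1 array: without 12 h replicate 5, 6 of 7 tested members passed, from Sirt2 (2.09, limma adjusted p = 0.0117) to Tspan2 (0.77, adjusted p = 0.0457), as did Mog (1.30, adjusted p = 0.0139), while Mal did not (0.34, adjusted p = 0.314). Over all 7909 genes tested the number of calls then went from 33 to 362, of which 123 were higher and 239 lower. With the suffix as a block Mobp passed (1.47 ± 0.36, limma adjusted p = 0.0479), and Mog did without a filter (0.86 ± 0.20, adjusted p = 0.048); 0.506% of genes tested were higher there. With runs as a random block Mobp alone passed (limma adjusted p = 0.0493), where 49 of 7909 genes were called higher. With runs as a fixed block 0 of 7 members passed, where 0 genes were called higher.

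The members went up and down together across arrays, Mal apart. Over the 15 arrays the median Pearson correlation of log2 levels was 0.869 over 28 pairs of members (0.48 to 0.975), and over the 21 pairs without Mal it was 0.901. These values contain the differences between groups. Taken as deviations from group means, the median was 0.689 over all pairs, and 0.762 (0.478 to 0.951) without Mal. The deviations of Mag, Mog and Cldn11 followed each other closely, at 0.951 for Mag with Cldn11 and 0.949 for Mag with Mog, as did those of Cnp and Sirt2 at 0.936. The deviations of Mal correlated with those of the other members at -0.34 to 0.12. The points are arrays that also differ in title code suffix and actin ratio, so these are descriptions with no test.

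**Figure D5:**
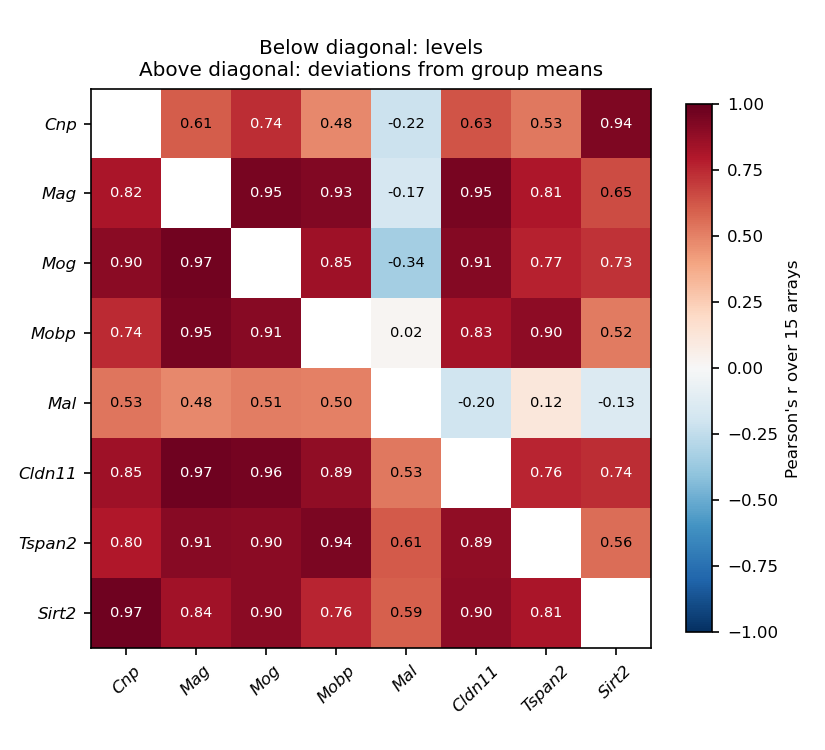
Pearson correlations between the 8 genes over 15 arrays, of log2 levels below the diagonal and of deviations from group means above it, with the colour scale from -1 to 1. The 7 genes other than Mal lie between 0.478 and 0.951 above the diagonal, and the cells of Mal there lie between -0.34 and 0.12.

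By the rule fixed for likeness, the genes outside the list whose levels followed the members' mean most closely over the 15 arrays were Myrf (r = 0.986), Tmem163 (0.977), Ugt8a (0.977), Gltp (0.969), Tmcc2 (0.968), Plcg2 (0.966), Fa2h (0.966) and Bmp4 (0.963). For deviations from group means they were Myrf (0.962), Plcg2 (0.954), Tmem163 (0.952), Nfe2l3 (0.936) and Ugt8a (0.933). Myrf encodes the membrane-bound transcription factor that switches on myelin genes, Ugt8a the enzyme that makes the galactolipids of myelin, and Fa2h the hydroxylase that modifies their fatty acids. Gene by gene, the closest was Sirt2 for Cnp (0.975), Rnd2 for Sirt2 (0.977), Plcg2 for Mag (0.979), Tmem163 for Mog (0.98) and for Cldn11 (0.983), Mag for Mobp (0.947) and Mobp for Tspan2 (0.938). For Mal it was Cntn6 (0.945), a neural adhesion protein of the contactin family.

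Of 39 other myelin and oligodendrocyte genes listed, 28 were on the array with a probe set of 1 symbol and 23 passed the filter. At 24 h, 11 of 23 rose, 1 fell and 11 were not called, with a median of 0.52, against -0.06 over all genes. Of all 7909 genes tested, 1003 were called higher and 1533 lower. Those that rose included Mbp, the protein that compacts myelin (3.53 ± 0.98, SE; limma adjusted p = 0.0125), Ugt8a (3.11 ± 0.58, adjusted p = 0.00134), Sox10, a transcription factor of the whole lineage (2.66 ± 0.56, adjusted p = 0.00283), Myrf (2.19 ± 0.44, adjusted p = 0.00212) and Fa2h (2.14 ± 0.44, adjusted p = 0.0024). The gene that fell was Car2, a carbonic anhydrase of oligodendrocytes (-2.31 ± 0.28, limma adjusted p = 8.81e-05), also lower at 24 h than at 12 h (-1.69 ± 0.28, adjusted p = 0.0282). At 12 h, 0 of 23 were called in limma, and 2 were higher with the suffix block; Mbp stood at 0.82 ± 0.98 and Myrf at 0.72 ± 0.44. The mean log2 level of Mbp was 5.43, 6.26 and 8.97 in undifferentiated, 12 h and 24 h arrays.

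Markers of other cell types moved too, where 1003 of all 7909 genes tested were called higher at 24 h and 1533 lower. Of 10 astrocyte markers 7 rose and 1 fell at 24 h, and their summed linear signal was 850 to 1529 in undifferentiated arrays and 1868 to 4320 at 24 h. Of 8 oligodendrocyte precursor markers on the array, 7 passed the filter. Of these, 2 rose, Sox10 among them, 1 fell and 4 were not called, with a median difference of 0.37. Their summed signal was 1061 to 2021 and then 1257 to 2456. Of 9 neural stem cell markers 3 rose and 3 fell, with sums of 1432 to 3112 and 1914 to 5299, and 2 of 5 neuron markers above the filter rose (14.1 to 27.4 and 18.3 to 29.6). Peripheral myelin is made by Schwann cells: of 6 of their markers on the array 4 passed the filter and at 24 h 1 rose, Sox10, which oligodendrocytes share, and 1 fell, while the sum went from 21.4 to 35.4 up to 30.5 to 77.7. Of 10 smooth muscle and pericyte markers 4 passed and 2 rose (29.3 to 40.03, then 52.2 to 173.4), and 2 of 2 ependymal markers on the array rose (5.605 to 7.61, then 9.83 to 22.01). The part of these cells in the members' levels was not tested. None of 11 microglia, 9 endothelium and 5 T cell markers passed the filter. By group means, 4 of 5 T cell markers lay below the filter level at 12 h and at 24 h. The protocol text mentions blood mononuclear cells, a cell type given for no sample, and their presence was not tested.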

How the data were processed

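Total RNA of 15 samples, 5 in each of 3 groups, was hybridised to Affymetrix mouse arrays. The authors made the values with MAS5, per the submitters' processing notes; its version is not given in the sources used here, nor are settings or scaling. The deposited values were read as log10 of the signal, since the spike-in slope per log10 of concentration was 1.07 ± 0.0655 (SD, n = 15 arrays), and were multiplied by 3.32 to give log2. Log base and any offset are thus inferred, and folds of dim probe sets are uncertain. Of 22690 probe sets 64 were controls; of the rest 20380 had 1 symbol in GEO's platform annotation, 691 several and 1555 none, and 20351 were matched to RefSeq genes of GRCm38.p6. Per gene the probe set of the highest mean was kept, and genes above the 40th percentile of probe sets (0.51 log2) were tested. All 15 arrays entered 1 limma fit (limma 3.58.1, R 4.3.3; moderated with a trend), with Benjamini-Hochberg adjustment over all genes tested and a threshold of 0.05. The fit was tested on simulated data. Levels of different probe sets were not compared.

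Members and gene lists were chosen with earlier results of these data known. Named are all members, Mbp, Sox10, Myrf and Ugt8a, then Fa2h and Car2 of the other myelin genes for their small p at 24 h, and the genes of the closest pattern. Groups were taken from titles and sample sources. Alternatives covered scaling, filters, probe set choice, variance model, blocks on title code suffix and run, the actin ratio, array file codes and leaving out arrays. Promoters are RefSeq's; protein sequences were not used here. Figures were drawn with matplotlib 3.10.9 (Python 3.11.15).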

Additional observations from a re-analysis of the deposited data

Results flagged for a closer look

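In 24 groups of 5 arrays (8 genes, 3 groups each), 3 held an array far from the other 4 by Dixon's ratio, whose critical value for 5 is 0.710; chance gives about 1 such group in 20. Tspan2 at 12 h was highest in replicate 5, at a log2 level of 1.98 (ratio 0.814). Sirt2 at 12 h was highest in the same array, at 8.56 (ratio 0.821). Cldn11 at 24 h was lowest in replicate 1, at 2.23 (ratio 0.748). The 12 h array is of title code suffix C and the 24 h array of suffix A; the part of the suffix and of RNA quality in these values was not tested.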

How the results depend on the processing

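The labels carry no replicate numbers that join the groups, so arrays were paired only through runs of title codes, used as a block, as was the suffix. At 24 h against undifferentiated cells, 2536 genes and 7 members were called. Members called were 3 (of 3 tested) with the filter at the 60th percentile. With the mean of a gene's probe sets 5 were called, of 5 tested. Members called were 4 without suffix C (1128 genes) and 0 with the actin ratio (13 genes). With groups from the array file codes 0 members were called (0 genes). At 12 h, 622 genes and 0 members were called. Genes called were 935 after quantile normalisation, 404 with only the 2 groups compared, 1476 with the suffix block, 1169 with the run block, 1458 with a random run block, 59 with the actin ratio, 0 by file codes and 70 without suffix C. In quantile normalisation, median centring, the suffix block and the random block 1 member, Mal, was called. Between 12 h and 24 h, 33 genes and 0 members were called. Genes called were 17 after median centring, 18 with the mean of a gene's probe sets, 2 with only the 2 groups, 202 with the suffix block, 2 with the run block, 235 with the random block, 1 with the actin ratio, 0 by file codes, 1 with 12 h replicates 3 and 4 averaged and 52 without suffix C; 1 member, Mobp, was called with the suffix block and the random block. Leaving out 1 array gave 174 to 1005 genes and 0 to 1 members at 12 h, 2012 to 2804 genes and 7 members at 24 h, and 1 to 362 genes and 0 to 6 members between 12 h and 24 h. At 12 h the count moved over 1.5 times without undifferentiated replicates 2 (336), 4 (248) or 5 (230) or 12 h replicates 2 (174), 3 (1005) or 5 (209). Directions turned at 12 h with the actin ratio for Mag (-0.15), Mog (-0.0199), Mobp (-0.72) and Tspan2 (-0.12), for Mobp without suffix C (-0.30) or 12 h replicate 5 (leaving out 1 array gave -0.24 to 0.39), and for Mal by file codes (-0.31). The share of higher genes among calls between 12 h and 24 h was 15.2%, against 28.6% after quantile normalisation and 58.8% after median centring. The cause of these shifts was not tested. Signal limits Mog, Mobp in undifferentiated cells and at 12 h, and Mal in undifferentiated cells, where the means lay below the filter level.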
